A study of Mus musculus with 6 samples.

Results

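The enzymes that make superoxide in phagocytes and those that remove it were examined as 8 genes of the deposited expression table, namely Cybb, Cyba, Ncf1 and Ncf4 of the NADPH oxidase, the superoxide dismutases Sod1, Sod2 and Sod3, and the catalase gene Cat. They were taken by gene symbol, and all 8 were found among the 24940 genes of the table. The cells were mouse bone marrow-derived macrophages, a culture selected by M-CSF that can go on to form osteoclasts (osteoclast precursors, OCPs). Cells without RANKL (-R) were kept for 3 days in M-CSF at 30 ng/mL, cells with RANKL (+R) received M-CSF and RANKL at 100 ng/mL, and cells with RANKL and LE (R+LE) received both cytokines and LE at 10 μg/mL, a methanol extract of Abeliophyllum distichum leaves. RNA-seq was performed on 2 libraries of each condition, 6 in all. Per the labels, the marrow came from C57BL/6 mice aged 6 to 8 weeks, whereas the methods of the study name ICR males, and neither source gives a genetic change in the mice or says whether the 2 libraries of a condition came from separate cultures, so p-values measure the spread between libraries, which may be technical.

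The phagocyte NADPH oxidase passes electrons from NADPH to oxygen and so makes superoxide. Its catalytic subunit, encoded by Cybb, sits in the membrane with the small subunit encoded by Cyba, and it works only when cytosolic subunits, among them those encoded by Ncf1 and Ncf4, and a Rac GTPase join it. Superoxide dismutases turn superoxide into hydrogen peroxide, which catalase and the peroxiredoxin and glutathione peroxidase systems remove. In osteoclast precursors, reactive oxygen is known as a signal downstream of RANKL.

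The libraries held between 29391656 and 34846228 mapped reads, recovered from the deposited RPKM values (reads per kilobase of transcript, scaled to the mapped depth), which fell on whole reads within a tolerance of 0.1 read in 100% of the values checked. The entry for the 45S ribosomal RNA precursor, Rn45s, took 4.97% to 6.83% of the reads on genes in -R, 10.9% to 11.1% in +R and 11.2% to 13.5% in R+LE. Acp5, which encodes the TRAP enzyme of osteoclasts, was high in the libraries labelled with RANKL and averaged 34.2 ± 0.845 RPKM without RANKL, 879.5 ± 119.7 RPKM with it and 165.8 ± 26.7 RPKM once LE was added (SD, n = 2 libraries each). As a bulk measurement, the values cannot separate a change in the number of cells of a type from a change of RNA per cell. Differences are given on the log2(RPKM + 0.5) scale and were tested with limma over the 11595 genes that averaged 0.5 RPKM or more, and a gene is called changed at a Benjamini-Hochberg adjusted p-value under 0.05. With 2 libraries against 2, an exact permutation test of 1 gene cannot give a two-sided p under 0.333 and calls draw on the spread estimated over many genes.

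RANKL changed 6 of the 7 tested members, and they did not move together. Cybb, Ncf1 and Cat fell, whereas Ncf4, Sod1 and Sod2 rose. For comparison, 45.4% of all genes tested changed between +R and -R, with 23.9% higher and 21.5% lower, and the groups did not overlap for all 7 members and for 75.2% of all genes. Adding LE to RANKL changed 2 of the 7, Cat and Ncf1, both of which rose, where 12.0% of all genes changed, with 5.19% higher and 6.86% lower. The R+LE and +R libraries did not overlap for 5 of the 7, against 49.0% of all genes. Between R+LE and -R, 5 of the 7 differed, against 34.3% of all genes (15.3% higher and 19.0% lower), and 6 did not overlap, against 65.5%. The split of all genes in the comparisons with R+LE depended on the scaling and on single libraries. Without R+LE replicate 2, more genes were higher than lower in both comparisons, and without R+LE replicate 1 more were lower. With median centring, 2380 were higher and 2101 lower than in -R (1773 and 2201 otherwise), and 792 were higher and 742 lower than in +R (602 and 795 otherwise). At a fold of at least 2 as well, 4 of the 7 passed for RANKL (15.5% of all genes) and only Cat passed for LE (3.23% of all genes). Cybb and Ncf4 missed that fold for RANKL in 1 of 17 alternatives each, at -0.94 for Cybb without -R replicate 2 and 0.995 for Ncf4 without +R replicate 1. Sod2 reached it only without +R replicate 2. Between R+LE and -R, Cybb passed it by little (10.3% of all genes), missing it in 5 of 17 alternatives with log2 differences from -1.30 to -0.72 over all 17. Sod1 passed it in 2 of the 17. The eighth member, Sod3, lay under the filter on low values. Of the 7 tested members, each had between 1353 and 15656 reads in every library.

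**Figure D1:**
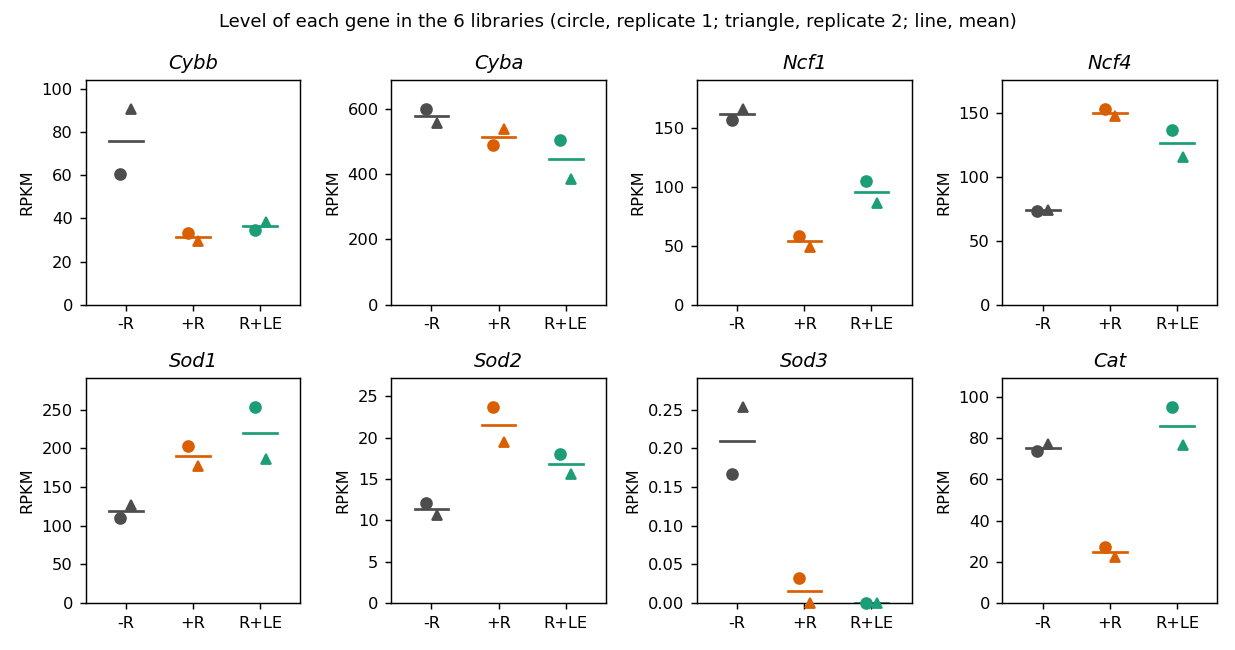
Level of the 8 genes in RPKM (vertical axes, starting at 0) in -R, +R and R+LE, with 1 point for each library and a line at the mean of 2. Cat was at 22.4 and 26.9 RPKM in +R and at 73.6 or more in the other 4 libraries, while Cybb stayed at 38.5 or less in both RANKL conditions.

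Cybb encodes the catalytic subunit of the oxidase and lies on chromosome X of mm10 from 9435254 to 9469324. It was at 60.7 and 90.8 RPKM in the -R libraries, at 33.3 and 29.5 RPKM in +R, and at 34.8 and 38.5 RPKM in R+LE. Both -R libraries lay above the other 4, and they were the least alike of the 3 pairs. The log2 difference was -1.23 between +R and -R (standard error 0.18, adjusted p = 4.07e-05 in limma). LE added to RANKL gave a log2 difference of 0.22 with a 95% interval from -0.16 to 0.60 (adjusted p = 0.538 in limma). The interval for Ncf1, from 0.49 to 1.17, overlapped it, and that for Cat, from 1.44 to 2.11, did not. The genes were not tested against each other. In R+LE, Cybb was still below -R, with a log2 difference of -1.01 (adjusted p = 0.000377 in limma).

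Cyba encodes the small membrane subunit that holds the catalytic subunit in place, and lies on chromosome 8 from 122424771 to 122432940. It had the highest level of the 8 genes per length in every library, with 598.7 and 556.7 RPKM in -R, 487.5 and 538.9 RPKM in +R, and 504.9 and 384.7 RPKM in R+LE. That placed it between rank 72 and rank 128 of the 24940 genes. The +R and R+LE libraries overlapped, and all 4 lay below both -R libraries. RANKL gave a log2 difference of -0.17 (95% interval from -0.57 to 0.23, limma adjusted p = 0.483). LE gave -0.22 (interval from -0.62 to 0.19, limma adjusted p = 0.575), and neither passed. The difference between R+LE and -R was -0.39 (adjusted p = 0.128 in limma), and it depended on a single library, reaching -0.59 (adjusted p = 0.00776) without R+LE replicate 1. It also passed under quantile normalization at -0.57, as did the difference with RANKL at -0.48 (adjusted p = 0.000446 and 0.000764 in limma), and with limma's voom on the recovered reads at -0.39 (adjusted p = 0.0428).

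Ncf1 encodes the cytosolic organizer subunit, which bridges the other cytosolic subunits to the membrane once it is phosphorylated, and lies on chromosome 5 from 134220259 to 134229625. Its level was 156.7 and 165.8 RPKM in -R, 58.0 and 49.1 RPKM in +R, and 105.2 and 86.4 RPKM in R+LE. The 3 conditions did not overlap, with R+LE between the other two. RANKL lowered it by a log2 difference of -1.59 (standard error 0.16, adjusted p = 9.9e-07 in limma). With LE it rose by 0.83 against +R (95% interval from 0.49 to 1.17, adjusted p = 0.00257 in limma). A gap of -0.75 to -R remained (adjusted p = 0.00175 in limma). Over its annotated exons, 282 bases are shared with exons of Gtf2ird2 on the opposite strand, from which the unstranded counting could not separate reads. Gtf2ird2 itself was between 1.63 and 2.57 RPKM in the 6 libraries.

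Ncf4 encodes a further cytosolic subunit, which binds a membrane lipid of phagosomes, and lies on chromosome 15 from 78244811 to 78262580. It moved opposite to Ncf1 under RANKL. The libraries held 73.3 and 74.4 RPKM in -R, 153.0 and 147.6 RPKM in +R, and 136.7 and 115.9 RPKM in R+LE. Both RANKL conditions lay above -R, and R+LE lay below +R. The rise with RANKL was 1.02 on the log2 scale (standard error 0.15, adjusted p = 5.65e-05 in limma), and 0.77 was left between R+LE and -R (adjusted p = 0.00109). The step from +R to R+LE, at -0.26 with an interval from -0.58 to 0.07, did not pass (adjusted p = 0.356 in limma).

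Sod1 encodes the copper and zinc dismutase of the cytosol and lies on chromosome 16 from 90220742 to 90226324. It was at 110.2 and 126.4 RPKM in -R, at 202.9 and 176.5 RPKM in +R, and at 252.8 and 186.7 RPKM in R+LE. Both RANKL conditions were above -R and overlapped each other. Sod1 rose by 0.68 on the log2 scale under RANKL (limma adjusted p = 0.00587, standard error 0.18). Between R+LE and -R the difference was 0.88 (limma adjusted p = 0.00134). Without -R replicate 1 neither call held, at 0.58 (adjusted p = 0.114 in limma) and 0.78 (adjusted p = 0.0578), and without +R replicate 1 the first was 0.58 (adjusted p = 0.0567). LE against +R gave 0.20 (interval from -0.18 to 0.58, adjusted p = 0.591 in limma), and -0.019 without R+LE replicate 1.

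Sod2 encodes the manganese dismutase of mitochondria and lies on chromosome 17 from 13007839 to 13018119. Among the 7 tested genes it had the lowest level in all 6 libraries, with 12.1 and 10.6 RPKM in -R, 23.7 and 19.4 RPKM in +R, and 18.1 and 15.6 RPKM in R+LE. The 3 conditions did not overlap, with R+LE between the other two. RANKL raised it by 0.89 on the log2 scale (standard error 0.15, adjusted p = 0.000166 in limma), the only dismutase whose call for RANKL held with each library left out. LE gave -0.34 against +R (interval from -0.66 to -0.02, adjusted p = 0.174 in limma), and R+LE was 0.55 above -R (adjusted p = 0.00994). That last call was lost without -R replicate 2, at 0.46 (adjusted p = 0.115 in limma), without R+LE replicate 1, at 0.45 (adjusted p = 0.0509), and with no filter on low values (adjusted p = 0.0504).

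Sod3 encodes the secreted dismutase and lies on chromosome 5 from 52363804 to 52369738. It was close to the limit of detection, with 10 and 18 reads in the -R libraries, 2 and 0 reads in +R, and 0 and 0 reads in R+LE, which is 0.167 and 0.253 RPKM in -R and at most 0.032 RPKM elsewhere. Pooled over libraries, the level per depth in -R was 13.4 times that in +R (exact 95% interval from 3.37 to 116, counting error only). The interval took each read as independent, though the reads were paired-end. Against R+LE, where no read was found, the mean of -R was 4.35 times the level that 3 reads in a library would give. Its fold changes were not tested across genes. Stromal cells are a known source of Sod3. Of 7 stromal markers, Dcn and Lum were at 0.159 RPKM or less in every library. Higher levels were found for Col1a1 (3.369 to 8.325 RPKM), Col1a2 (3.445 to 6.241) and Col3a1 (0.627 to 1.584). The sum of all 7 was 15.3 to 16.9 RPKM in -R, 10.9 to 15.01 in +R and 8.07 to 8.97 in R+LE. These 3 collagen genes were the stromal markers that could be tested. With RANKL none of the 3 passed in limma (45.4% of all genes did), and 1 fell with voom, where 2626 of 11595 genes fell. With LE 2 fell in limma and 3 with voom, where 6.86% and 8.75% of all genes fell. Their part in the value of Sod3 was not tested.

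Cat encodes catalase, which breaks down hydrogen peroxide in peroxisomes, and lies on chromosome 2 from 103453904 to 103485153. It was the member that LE moved furthest. Its level was 73.6 and 77.4 RPKM in -R, 26.9 and 22.4 RPKM in +R, and 94.97 and 76.5 RPKM in R+LE. Both +R libraries lay below the other 4, and the -R and R+LE libraries overlapped. RANKL lowered it by a log2 difference of -1.60 (limma adjusted p = 7.59e-07, standard error 0.16). The addition of LE raised it by 1.77 over +R (95% interval from 1.44 to 2.11, adjusted p = 2.77e-06), a ratio of mean RPKM of 3.47. The difference between R+LE and -R was 0.17 (interval from -0.16 to 0.51, adjusted p = 0.422 in limma), and it passed in 1 of 17 alternatives, quantile normalization, at 0.26 (adjusted p = 0.04795). Both of the first differences use the same +R libraries. With either +R library left out, the rise with LE was 1.64 or more.

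**Figure D2:**
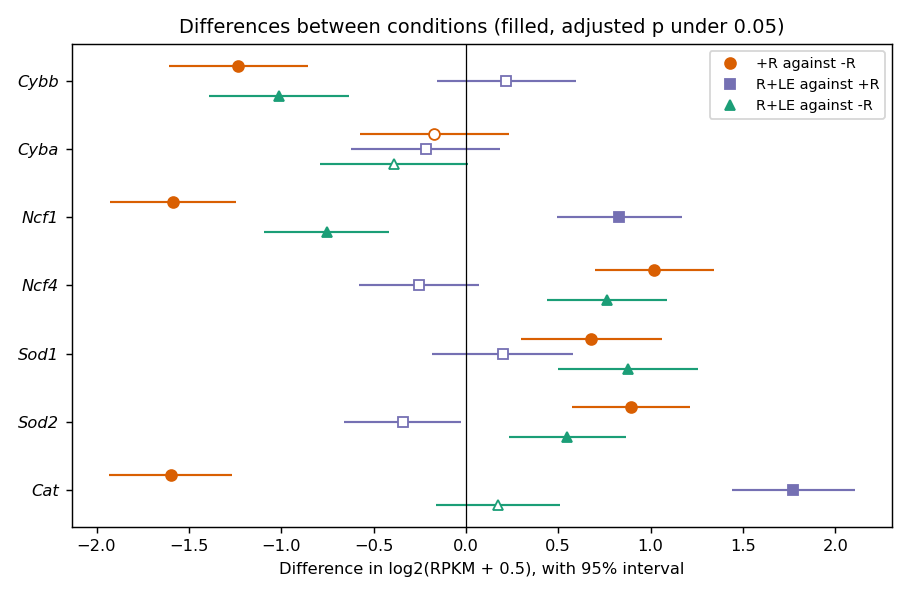
Difference in log2(RPKM + 0.5) (horizontal axis) between conditions for the 7 tested genes, with 95% intervals from limma and filled symbols for an adjusted p under 0.05. Only Ncf1 and Cat have a filled square for R+LE against +R, at 0.83 and 1.77, and Cyba has no filled symbol.

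RPKM is per length, so levels can be set side by side between genes, as far as the transcript lengths used hold. These differed most from the exons in GENCODE M21 for Sod2 (3817 against 5861 bases) and Sod3 (2041 against 3738 bases). In -R the order ran from Cyba through Ncf1 and Sod1 to Cybb, Cat and Ncf4, whose libraries overlapped between 60.7 and 90.8 RPKM, and then to Sod2 and Sod3. In +R it ran Cyba, Sod1, Ncf4, Ncf1 and Cybb, followed by Cat and Sod2, which overlapped. With LE, Cat moved up to overlap with Ncf1, at 76.5 to 94.97 and 86.4 to 105.2 RPKM, and Cybb stayed below both. The ratio of Ncf1 to Ncf4 within a library was 2.14 and 2.23 in -R, 0.379 and 0.333 in +R, with R+LE between them at 0.770 and 0.745. Sod1 exceeded Cat by 1.497 and 1.63 times in -R, by 7.53 and 7.87 times in +R, and by 2.66 and 2.44 times in R+LE. Both ratios had 3 conditions that did not overlap. The ratio of Sod1 to Sod2 was 9.14 and 11.9 in -R and 8.58 and 9.08 in +R, with R+LE at 13.99 and 11.94, so that the conditions did not overlap here either but lay close to each other. Cyba exceeded its partner Cybb by 9.86 and 6.13 times in -R, by 14.6 and 18.3 times in +R, and by 14.5 and 9.98 times in R+LE. The ratio of Ncf1 to Cybb overlapped between -R, at 2.58 and 1.83, and R+LE, at 3.03 and 2.24. The ratios are given without a test, and how often those of other gene pairs overlap was not counted.

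**Figure D3:**
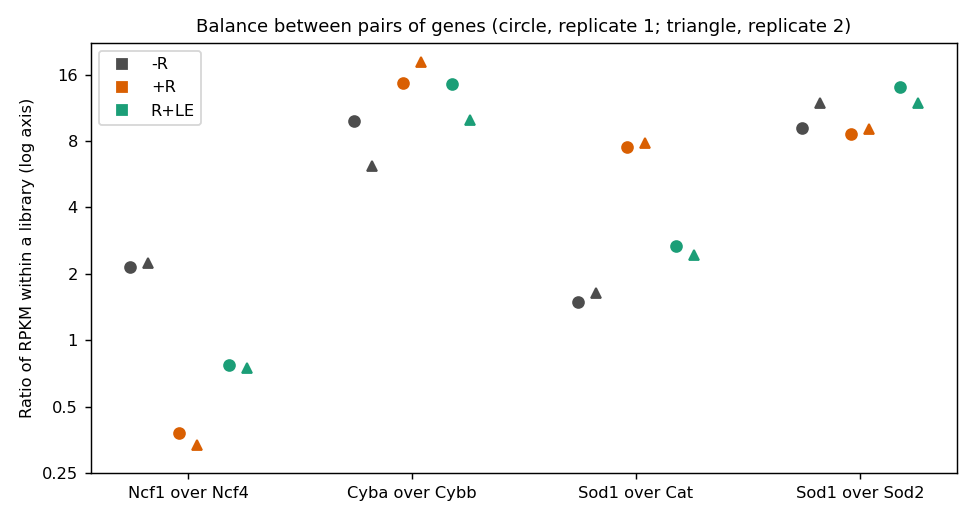
Ratio of RPKM values of 2 genes within each library (vertical log axis) for 4 pairs of genes, colored by condition. Ncf1 over Ncf4 falls from above 2 in -R to 0.379 or less in +R, and Sod1 over Cat goes the other way, to 7.53 or more.

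Promoters are shown for the members that LE raised, Cat and Ncf1, for Cybb, which stayed low, and for Sod1, whose window held the only match to an antioxidant response element. Sequences of the 250 bases before the start site came from RefSeq on GRCm38.p6, whose chromosomes are those of mm10, and 6 of the 8 members had an entry, without Ncf4 and Sod3. For 5 of these 6 the start site was that of the expression table, and for Sod1 it lay 20 bases further along the gene. Both strands were searched for the antioxidant response element core TGACNNNGC, AP-1 (TGANTCA), the PU.1 core GAGGAA, NF-kB (GGGNNTTCC), the CCAAT box and the GC box GGGCGG, and capitals mark the matches, some of which overlap. The first 2 patterns can overlap each other.
Cat, chr2:103485154-103485403, minus strand: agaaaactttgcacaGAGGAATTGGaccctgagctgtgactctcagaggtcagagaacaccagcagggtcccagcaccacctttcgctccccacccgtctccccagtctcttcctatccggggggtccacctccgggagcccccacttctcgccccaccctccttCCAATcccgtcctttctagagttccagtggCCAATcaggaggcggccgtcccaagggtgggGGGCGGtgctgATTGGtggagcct
Ncf1, chr5:134229626-134229875, minus strand: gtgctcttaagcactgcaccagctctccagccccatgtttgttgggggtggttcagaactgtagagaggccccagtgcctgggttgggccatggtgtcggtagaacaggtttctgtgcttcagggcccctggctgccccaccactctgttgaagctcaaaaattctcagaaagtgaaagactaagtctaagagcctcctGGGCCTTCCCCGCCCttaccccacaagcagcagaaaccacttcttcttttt
Cybb, chrX:9469325-9469574, minus strand: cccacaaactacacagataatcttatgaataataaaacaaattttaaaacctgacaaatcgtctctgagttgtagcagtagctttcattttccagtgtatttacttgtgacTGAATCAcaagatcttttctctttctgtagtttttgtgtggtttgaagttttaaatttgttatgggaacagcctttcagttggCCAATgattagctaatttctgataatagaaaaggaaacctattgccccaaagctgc
Sod1, chr16:90220512-90220761, plus strand: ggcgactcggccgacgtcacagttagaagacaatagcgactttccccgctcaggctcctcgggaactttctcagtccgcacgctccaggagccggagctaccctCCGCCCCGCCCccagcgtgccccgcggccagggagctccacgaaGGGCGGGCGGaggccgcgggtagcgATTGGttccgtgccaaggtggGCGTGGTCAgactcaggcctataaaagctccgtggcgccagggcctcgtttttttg

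In these windows the Cat promoter held 4 CCAAT boxes over both strands, the nearest from 13 to 9 bases before the start, a GC box and a PU.1 core. Sod1 had its antioxidant response element match on the opposite strand, from 56 to 48 bases before the start. Cybb had a CCAAT box and a match to the AP-1 pattern, TGAATCA, from 139 to 133 bases before the start. Ncf1 had a match to the NF-kB pattern, GGGCCTTCC, from 51 to 43 bases before the start, which adjoins a GC box. Over the 6 member promoters, 1 held the antioxidant response element core, where 10.2% of 32851 promoters of the same length did. The AP-1 pattern was found in 1 of 6 (6.75% of all promoters) and the NF-kB pattern in 1 (4.98%). The PU.1 core was found in 2 (23.3%), the CCAAT box in 4 (33.8%) and the GC box in 5 (32.7%). N in a pattern accepts any base, so a match to AP-1 or NF-kB can hold letters outside the site that the factor prefers. A match is a description of the letters and not a site of binding.

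Other genes of the oxidase and its regulation were followed as a list of 19 genes, of which 11 were tested. With RANKL 4 rose and 3 fell, where 23.9% of all genes rose and 21.5% fell. The median log2 difference was -0.20 against 0.05 over all genes. With LE none passed in limma, where 12.0% of all genes did. At an unadjusted p under 0.05, 2 of the 11 were lower (13.8% of all genes lower and 9.54% higher). With voom 2 passed as lower (8.75% of all genes lower and 6.49% higher). The median with LE was 0.05 against -0.05 over all genes. Nrros, which encodes a protein of the endoplasmic reticulum that limits the amount of the catalytic subunit, fell from 64.5 ± 1.73 to 22.9 ± 0.685 RPKM and was 26.5 ± 1.77 RPKM in R+LE (log2 difference with RANKL -1.48, adjusted p = 4.18e-07 in limma). The GTPase gene Rac2 rose with RANKL by 0.75 (adjusted p = 0.00151 in limma). Arhgdib, an inhibitor of small GTPases and the gene of this list with the highest mean level, rose by 0.72 (adjusted p = 0.0032 in limma), and was not called without -R replicate 1 (0.74, adjusted p = 0.0556) or replicate 2 (0.70, adjusted p = 0.063).

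Of the related oxidases, only Nox1, which encodes another catalytic subunit, was tested. It was at 0.948 and 1.16 RPKM in -R, 4.37 and 2.94 RPKM in +R, and 2.16 and 2.55 RPKM in R+LE. Its rise with RANKL was 1.40 on the log2 scale (adjusted p = 2.41e-05 in limma), in the direction opposite to Cybb. The difference with LE was -0.52 (adjusted p = 0.0988 in limma), and it ranged from -0.77 (adjusted p = 0.0183) without +R replicate 2 to -0.27 (adjusted p = 0.675) without +R replicate 1. With voom it passed at -0.61 (adjusted p = 0.0258). Per length, Cybb exceeded Nox1 by 64.1 and 78.3 times in -R, by 7.62 and 10.0 times in +R and by 16.1 and 15.1 times in R+LE. Nox3, Duox1 and Duox2 were listed at 0 in all libraries, and Nox4 was at most 0.008 RPKM.

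Peroxide-removing enzymes formed a list of 20 genes, of which 17 were tested. With RANKL 4 rose and 6 fell, where 23.9% of all genes rose and 21.5% fell. The median log2 difference was 0.12 against 0.05 over all genes. LE raised 4 of the 17 in limma, where 5.19% of all genes were higher, and lowered none, where 6.86% were lower. At an unadjusted p under 0.05, 1 was lower (13.8% of all genes), as was 1 with voom (8.75% of all genes). The median with LE was 0.14 against -0.05 over all genes. The 4 raised were Srxn1, a sulfiredoxin that restores oxidized peroxiredoxins (log2 difference 1.61, adjusted p = 7.31e-06 in limma), the peroxiredoxin gene Prdx1 (1.39, adjusted p = 0.000287), the thioredoxin reductase gene Txnrd1 (0.95, adjusted p = 0.000988) and the glutathione reductase gene Gsr (0.94, adjusted p = 0.000543). All 4 had fallen with RANKL, by log2 differences of -1.47, -2.09, -0.64 and -0.95 in that order. As for Cat, both differences of each gene use the same +R libraries, so they are not independent. All 4 calls for LE held under each alternative tried. The call of Txnrd1 for RANKL was lost without -R replicate 2 (-0.48, adjusted p = 0.105 in limma). Prdx1 was at 863.9 and 885.8 RPKM in -R, 242.5 and 174.3 RPKM in +R, and 607.0 and 476.9 RPKM in R+LE. The peroxiredoxin gene Prdx5 fell with RANKL from 208.2 ± 20.2 to 61.5 ± 0.851 RPKM and stood at 75.5 ± 16.2 RPKM after LE (n = 2, SD). Its difference with LE of 0.28 (limma adjusted p = 0.37) was 0.50 (adjusted p = 0.04002) without R+LE replicate 2 and 0.058 (adjusted p = 0.835) without R+LE replicate 1, and it passed with quantile normalization at 0.36 (adjusted p = 0.0409). Gpx1, the glutathione peroxidase gene with the highest mean level of this list, was at 589.7 ± 3.65, 685.3 ± 90.0 and 655.3 ± 92.7 RPKM in -R, +R and R+LE and did not pass in any comparison.

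**Figure D4:**
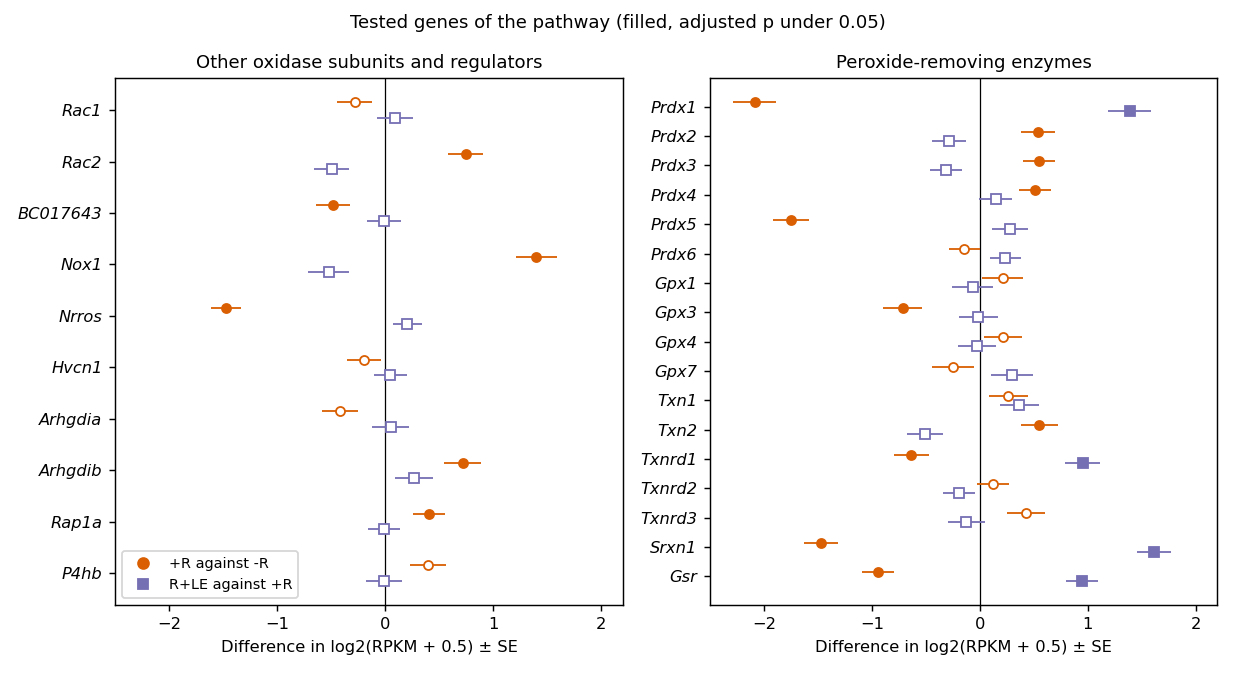
Difference in log2(RPKM + 0.5) ± SE (horizontal axis) for tested genes of the lists of the oxidase (left) and of peroxide removal (right), with circles for +R against -R, squares for R+LE against +R and filled symbols for an adjusted p under 0.05. Squares are filled for Prdx1, Txnrd1, Srxn1 and Gsr and for no gene on the left.

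Metal supply for the dismutases was a list of 7 genes, of which 6 were tested. With RANKL 1 rose and 3 fell, where 23.9% of all genes rose and 21.5% fell, at a median log2 difference of -0.47 against 0.05 over all genes. With LE 1 of the 6 rose in limma, where 5.19% of all genes did, at a median of 0.00 against -0.05. At an unadjusted p under 0.05, 2 were higher (9.54% of all genes) and 1 lower (13.8%), and with voom 2 were higher (6.49%). The riser with LE was Slc39a14, a zinc, iron and manganese importer, which averaged 9.54 ± 0.0636 RPKM without RANKL, 5.10 ± 0.61 RPKM with it and 8.60 ± 0.913 RPKM after LE (n = 2, SD). The log2 difference with LE was 0.70 (limma adjusted p = 0.00409), which was not called with no filter on low values (adjusted p = 0.057). Atp7a, a copper pump, fell with RANKL by a log2 difference of -1.63 (adjusted p = 3.31e-07 in limma). The copper chaperone gene Atox1, with the highest mean level of the list, rose from 99.7 ± 2.45 to 167.2 ± 38.4 RPKM (log2 difference 0.72, adjusted p = 0.00609 in limma). That call was lost without -R replicate 1 (0.75, adjusted p = 0.0675 in limma), without -R replicate 2 (0.70, adjusted p = 0.0809), without +R replicate 1 (0.49, adjusted p = 0.105) and with no filter on low values (adjusted p = 0.0655).

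The 2 genes most like each member over the 6 libraries were named by Pearson's r of log2(RPKM + 0.5), as a description, since the 3 conditions set most of the spread. Cat was most like Srxn1 (r = 0.999) and G6pdx (r = 0.996), and G6pdx was at 129.5 and 140.7 RPKM in -R, 68.8 and 61.9 RPKM in +R, and 163.0 and 129.0 RPKM in R+LE. For Ncf1 they were Smpdl3a (r = 0.9996) and Pld4 (0.999), and for Ncf4 Ruvbl2 and Eif4b (0.999 for both). Those of Cybb were Mndal (0.998) and Parp9 (0.997), in which the second -R library was likewise the higher one. Sod2 was nearest to Clybl and Vasp (0.997 for both), Sod1 to Chordc1 (0.995) and Nupl1 (0.994), and Cyba to AY074887 (0.991) and Khk (0.990).

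Markers of cell types were read beside these values. All 9 osteoclast markers rose with RANKL, where 23.9% of all genes rose, and all 9 fell with LE, where 6.86% fell. Of 7 macrophage markers, 6 fell with RANKL (21.5% of all genes). With LE 2 of the 7, Cd14 and Mertk, rose in limma (5.19% of all genes), and 3 rose with voom (6.49%). Csf1r, the M-CSF receptor gene, was at 162.5 RPKM or more in every library. Neutrophils carry much of the same oxidase, and the sum of 10 neutrophil markers was 16.4 to 18.2 RPKM in -R, 1.43 to 1.71 in +R and 1.44 to 3.27 in R+LE, in -R most of it from S100a8 and S100a9. Of the 3 neutrophil markers that could be tested, S100a8 and S100a9 fell with RANKL as Cybb and Ncf1 did, where 21.5% of all genes fell. The third, Cxcr2, did not pass, at a log2 difference of 0.30 (adjusted p = 0.281 in limma). The part of neutrophils in the values of Cybb and Ncf1 was not tested. Ly6g, Elane and Mpo of the same list were at 0.334, 0.143 and 0.054 RPKM or less in every library. Of 9 erythroid markers, which were followed because red cells hold much catalase, the 5 globin genes were listed at 0 in every library, and the sum was 0.615 RPKM or less. The sum of 7 lymphocyte markers was 1.74 RPKM or less.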

How the data were processed

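Paired-end reads were aligned to mm10 by the authors, who deposited RPKM values of 24940 genes. HOMER counted exon reads without regard to strand and kept 1 transcript a gene. The column titles say FPKM. The paper names TopHat as the aligner and the submitters' processing notes HISAT2, with no versions. All 6 value columns were used, and 26 symbols turned into dates were restored from transcript identifiers. Groups follow the sample titles. Since RPKM values are not counts, limma 3.58.1 in R 4.3.3 fitted the 3 group means of log2(RPKM + 0.5) with a variance trend for 11595 genes that averaged 0.5 RPKM or more, and 95% intervals used its moderated standard errors. The spacing of low values gave the mapped depth of each library, and from it the reads behind each RPKM value. A floor of 3 reads stood for a count of 0, and intervals and floors cover counting error only. Overlaps of exons came from GENCODE M21. The fit was tested on simulated data.

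The members, lists and tests were chosen with earlier results of these data known. Named besides the members were the genes of the lists changed with LE, the highest of each list, the 2 genes most like each member, and Acp5. Rac2, Nox1, Nrros, Prdx5, Atp7a, the other oxidase genes and the marker genes were named after their values were seen. Alternatives took other pseudocounts (0.1 and 1), left out the filter or raised it to 1 RPKM, dropped the variance trend, fitted 2 groups at a time, replaced the scaling (median centring, quantile normalization, depth without Rn45s), blocked on replicate number, ran voom with recovered reads, or omitted each library. Some genes of the lists are counted but not reported by name here. The other experiments of the study were not analysed here. Python 3.11.15 with pandas 2.3.3 and matplotlib 3.10.9 handled tables and figures.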

Additional observations from a re-analysis of the deposited data

How the results depend on the processing

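Over 17 alternatives, 345 of 357 values of the 7 tested members kept their direction and their side of an adjusted p of 0.05. The rise of Cat and Ncf1 with LE did so in every one, with log2 ranges from 1.62 to 1.93 and from 0.69 to 0.97. With no filter on low values, Ncf1 passed narrowly (adjusted p = 0.0487 in limma, against 0.00946 for Cat). In some alternatives only the p-value could change and the direction was fixed. These were the changes of filter, variance trend or groups fitted, the replicate block, and omission of a library outside the comparison. The number of genes changed between R+LE and +R was 1397 and became 581 with no filter. Between R+LE and -R it was 3974, with a range of 2455 to 4047 when 1 library was left out and the lowest value without -R replicate 1. The only member whose direction changed was Sod1 with LE, with a range from -0.019 to 0.42 when 1 library was left out. Among the other named genes, Gpx1 changed sign under quantile normalization in all 3 comparisons, to -0.20 for RANKL, 0.13 for LE and -0.071 for R+LE against -R, and with 1 library left out its difference with LE ranged from -0.21 to 0.079. Gsr, which was equal between R+LE and -R to 2 decimals, became 0.052 with centring, 0.098 with quantile normalization and 0.073 with Rn45s left out, and ranged from -0.12 to 0.11 with 1 library left out. In the same way Srxn1 ranged from -0.048 to 0.32 between R+LE and -R, and Atox1 from -0.37 to 0.0998 for LE. The cause was not tested. Rac2 (-0.50, adjusted p = 0.0621 in limma) and Atp7a (0.46, adjusted p = 0.0563) were not called for LE but passed under 7 and 6 alternatives, Rac2 at -0.67 without +R replicate 2 and -0.63 without R+LE replicate 1 among them. The replicate numbers pair no samples by the labels, and the differences between replicates 2 and 1 correlated across genes at -0.046, 0.11 and 0.25 between the groups. With the number as a replicate block, 5746, 1792 and 4488 genes changed in the 3 comparisons, against 5262, 1397 and 3974 without it, and no call of a member changed. Depth limits only Sod3 among the members.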
